A study of Xenopus laevis with 30 samples.

Results

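The genes t, eomes, mespb and foxf1 encode transcription factors that specify and pattern the mesoderm, and their messenger RNA levels were measured in bisected and undivided gastrulae of the frog Xenopus laevis. Members were taken by name, as every row whose gene ID without its homeolog suffix was one of these 4 symbols. X. laevis is allotetraploid, so most genes exist as an L and an S copy (homeologs), named for the longer and the shorter chromosome of a pair. The rule found 8 of the 17321 genes listed at either stage. At stage 10.5 it found 6 of 16673 genes, the L and S copies of t, eomes and mespb, and at stage 12 it found 8 of 15596 genes, the same 6 and both copies of foxf1. The study concerns regeneration of twin embryos, and each of its 2 stages (10.5, the early gastrula, and 12, the late gastrula) has 5 groups of 3 libraries from embryos of the Nasco strain. Dorsal, ventral, left and right half-embryos were separated with a cut at stage 8, the blastula, in Barth's solution and then grown in a dilution of that solution. Whole embryos, which the labels name as the controls of the same-numbered half-embryos, were grown in diluted Marc's Modified Ringers, so that medium and bisection changed together and cannot be told apart in a comparison with whole embryos. Dorsal and ventral half-embryos also differ from whole embryos in the region of the embryo that they hold, which such a comparison cannot set apart either. The labels name neither the number of embryos in a library nor the clutches that replicates came from. The p-values therefore stand for the scatter among these libraries, part of which may be technical.

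Brachyury, encoded by t, and Eomesodermin, encoded by eomes, are T-box transcription factors switched on in the ring of cells around the blastopore by Nodal and activin signals. Brachyury is kept on there by FGF signalling and later marks the notochord and the tail bud, while Eomesodermin acts early in mesendoderm. Mespb is a basic helix-loop-helix factor of the mesoderm posterior (Mesp) family, known in vertebrates for the segmentation of somites. Foxf1 is a forkhead factor of the lateral plate mesoderm, which forms the gut muscle and body wall, and it answers to BMP signals. In the gastrula, BMP activity is high on the ventral side and is held down on the dorsal side by antagonists that the Spemann organizer secretes.

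Values are RPKM, reads corrected for the length of the gene and the size of the library, as the authors deposited them, and the values of a group are given in the order of replicates 1, 2 and 3. RPKM corrects for gene length, so levels of different genes can be set side by side. Differences are in mean log2(RPKM + 1), dorsal minus ventral, half-embryos minus whole embryos, left minus right and midline cut minus frontal cut, ± the standard error, and at low RPKM they come out smaller than the true change. A gene was called when its adjusted p from limma, fitted over all genes of the stage, was 0.05 or less. Whether groups overlapped, or same-numbered pairs ran in the same direction, is described without a test. The share of all genes that did the same was not counted, so such statements are no support for genes that were not called. Summed over listed genes, the shallowest library had 3532883 reads and the deepest 5813109 at stage 10.5, and at stage 12 these sums were 2091772 and 5071874. Across libraries 497 to 2770 reads lay behind a value of t at stage 10.5 and 429 to 4423 at stage 12, whereas 2 to 142 reads lay behind a value of foxf1. L and S copies are close in sequence, and the sources used here do not say how reads that match both were assigned, so the split between copies is uncertain.

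The sides named by the labels were checked with marker genes. The summed RPKM of 18 rows for 9 organizer genes, chordin and goosecoid among them, was 1321 to 1517 in dorsal and 148 to 240.0 in ventral half-embryos at stage 10.5, and 1268 to 1814 in dorsal and 77.8 to 133 in ventral half-embryos at stage 12. The sum of 8 rows for ventral mesoderm and BMP feedback genes was 52.2 to 125 in dorsal and 569 to 901 in ventral half-embryos at stage 10.5, and 129 to 179 in dorsal and 1116 to 1477 in ventral half-embryos at stage 12. A goosecoid copy, gsc.L, was listed at 0 in all 3 ventral libraries of stage 12. Left replicate 2 of stage 12 stood apart from the other left libraries: its organizer sum was 202, against 993 and 1042 in the others, and its ventral sum was 755, against 209 and 271. It was also the single library outside the ventral group with gsc.L at 0. Right replicate 2 of stage 10.5 had an organizer sum of 379.6, against 889 and 916 in the other right libraries. The left libraries of that stage also spread widely, at 619, 1295 and 905, with the highest sum in left replicate 2. The differences of left and right half-embryos, and correlations and mean homeolog shares over all libraries of a stage, are given with and without right replicate 2 of stage 10.5 and left replicate 2 of stage 12.

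Dorsal half-embryos were set against ventral ones to ask whether these genes differed between the sides after separation. At early gastrula mespb was lower in dorsal half-embryos, by 2.18-fold for the L copy and 2.42-fold for the S copy on the RPKM + 1 scale, while t and eomes were not called. At late gastrula 3 of the 4 genes differed in both copies: eomes was higher in dorsal half-embryos by 6.85-fold (L) and 5.0-fold (S), and mespb and foxf1 were lower by 2.14-fold to 6.72-fold. Of the members, 2 of 6 were called at stage 10.5, where 0.99% of all genes were called, and 6 of 8 at stage 12, where 3.76% were called. With the replicate number as a block 8 of 8 were called at stage 12, where 5.76% of all genes were. The members were chosen with earlier results of these data known, so an excess over all genes is no independent support. The L and S copies of a gene are also no independent members, as the split of reads between them is uncertain. In bulk samples such as these, fewer cells of a type and less RNA per cell cannot be told apart.

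The S copy of t had the highest RPKM of all members in every library. At stage 10.5 the L copy stood at 81.1, 85.1 and 50.1 RPKM in dorsal half-embryos and at 99.7, 129 and 120.0 RPKM in ventral half-embryos. All 3 dorsal libraries lay below all 3 ventral ones. The difference was -0.71 ± 0.23 and was not called (adjusted p = 0.364, and 0.0585 with the replicate block). The S copy stood at 184, 189.8 and 155 RPKM in dorsal and at 182, 213 and 222 RPKM in ventral half-embryos. These groups overlapped, and the difference was -0.22 ± 0.12 (adjusted p = 1.00). At stage 12 t.L stood at 134, 62.6 and 74.9 RPKM in dorsal and at 263, 117 and 188 RPKM in ventral half-embryos. The groups overlapped because dorsal replicate 1 lay above ventral replicate 2, yet the dorsal library was below the ventral one of the same number in 3 of 3 pairs. The difference was -1.06 ± 0.30 (adjusted p = 0.0773), and it was called when the replicate number was a block in the fit (adjusted p = 0.00461). For t.S the stage 12 levels were 192, 185 and 214 RPKM in dorsal and 315, 212 and 336 RPKM in ventral half-embryos. Here too the dorsal library was the lower of its pair in 3 of 3 pairs, with a difference of -0.52 ± 0.19 (adjusted p = 0.246, and 0.0189 with the replicate block). Without ventral replicate 2, the lowest ventral library, t.L was called at -1.37 (adjusted p = 0.0210) and t.S at -0.72 (adjusted p = 0.05). The L copy was also called without dorsal replicate 1, its highest dorsal library, at -1.38 (adjusted p = 0.0210). Leaving out such a library widens the difference by construction, so these calls give no support. Of the 15 omissions, 2 for t.L and 1 for t.S gave a call, and the adjusted p reached 0.364 for t.L and 0.666 for t.S.

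Eomesodermin was not called at stage 10.5 and was higher in dorsal half-embryos at stage 12. At the earlier stage eomes.L stood at 44.6, 38.9 and 42.9 RPKM in dorsal and at 40.2, 27.1 and 14.5 RPKM in ventral half-embryos, where ventral replicate 1 lay within the dorsal range. Its difference was 0.72 ± 0.31 (adjusted p = 0.910, and 0.393 with the replicate block). The S copy stood at 72.6, 53.9 and 53.6 RPKM in dorsal and at 52.0, 31.1 and 22.2 RPKM in ventral half-embryos, groups that did not overlap. The difference of the S copy was 0.83 ± 0.29 (adjusted p = 0.500, and 0.130 with the block). The ventral libraries spread widely at this stage, with an SD of 12.8 RPKM for eomes.L, against 2.93 RPKM among the dorsal ones. At stage 12 the groups were far apart. The L copy stood at 33.4, 37.9 and 36.6 RPKM in dorsal and at 3.76, 2.88 and 7.48 RPKM in ventral half-embryos, a difference of 2.78 ± 0.45 (adjusted p = 0.00302). The S copy stood at 23.4, 36.0 and 31.1 RPKM in dorsal and at 3.28, 6.83 and 5.91 RPKM in ventral half-embryos, a difference of 2.32 ± 0.33 (adjusted p = 0.00148). Every dorsal library lay above every ventral one in both copies, and both calls held with each of the 15 libraries of the stage left out in turn.

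Mespb was the gene called at both stages, with lower levels in dorsal half-embryos each time. At stage 10.5 mespb.L stood at 10.8, 12.7 and 14.7 RPKM in dorsal and at 28.8, 26.4 and 31.2 RPKM in ventral half-embryos, a difference of -1.13 ± 0.23 (adjusted p = 0.0301). Its S homeolog stood at 24.6, 17.2 and 15.7 RPKM in dorsal and at 52.7, 45.7 and 43.2 RPKM in ventral half-embryos, a difference of -1.28 ± 0.23 (adjusted p = 0.0161). The groups did not overlap in either copy. The L call was lost without any single dorsal or ventral library of stage 10.5, at adjusted p of 0.0622 to 0.158. The S call was lost without dorsal replicate 2 or 3 or ventral replicate 1 or 3, at up to 0.0942. At stage 12 mespb.L stood at 13.9, 13.8 and 12.5 RPKM in dorsal and at 36.0, 23.5 and 31.0 RPKM in ventral half-embryos, a difference of -1.10 ± 0.27 (adjusted p = 0.0383). Levels of mespb.S were 16.3, 18.3 and 10.2 RPKM in dorsal and 47.3, 50.2 and 51.6 RPKM in ventral half-embryos, a difference of -1.71 ± 0.24 (adjusted p = 0.00122). Again no dorsal library reached a ventral one. The stage 12 S call held with each library left out, while the L call was lost without 9 of the 15 libraries, 5 of them dorsal or ventral (all but ventral replicate 2) and the others left replicate 3 and each whole replicate, at up to 0.191.

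Foxf1 was listed at stage 12 alone, since the tables are limited to genes with an average RPKM above 1, per the file headers, apart from 20 of the 15596 genes at stage 12, whose averages were 0.995 or more. It was lower in dorsal half-embryos in both copies. The L copy stood at 2.42, 3.11 and 0.790 RPKM in dorsal and at 9.14, 10.9 and 9.35 RPKM in ventral half-embryos, a difference of -1.88 ± 0.41 (adjusted p = 0.0173). For foxf1.S the values were 0.368, 0.874 and 0.218 RPKM in dorsal and 7.65, 8.87 and 10.1 RPKM in ventral half-embryos, a difference of -2.75 ± 0.45 (adjusted p = 0.00304). The dorsal values of foxf1.S rest on 2, 5 and 2 reads and the ventral ones on 38, 60 and 101 reads, so the dorsal level is known only roughly. In neither copy did the groups overlap. The S call held with each library left out, and the call of foxf1.L was lost without dorsal replicate 3 or any 1 ventral replicate, at adjusted p of 0.0524 to 0.0840.

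**Figure D1:**
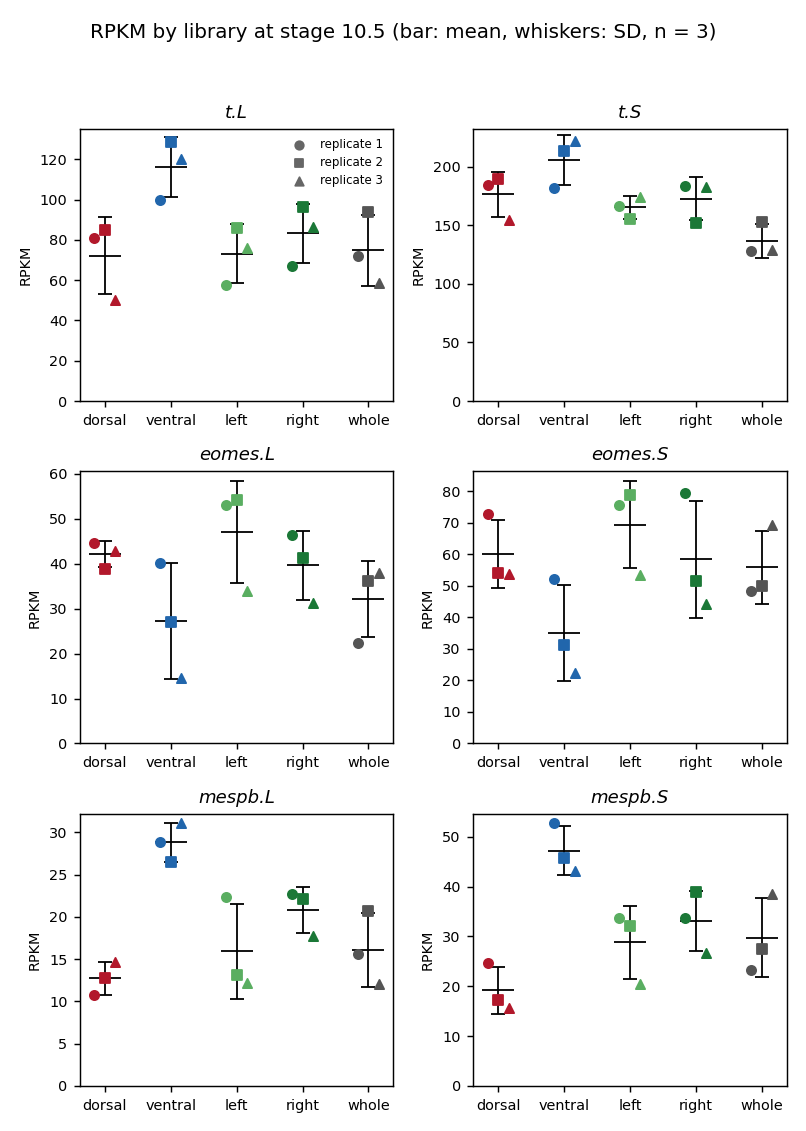
RPKM (linear axes from 0) of the 6 members listed at stage 10.5 in each of 15 libraries, by group, with marker shapes for replicates 1 to 3, a horizontal bar at the mean and whiskers of 1 SD (n = 3). Ventral half-embryos are the highest group for both copies of t and mespb and the lowest for both copies of eomes.

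**Figure D2:**
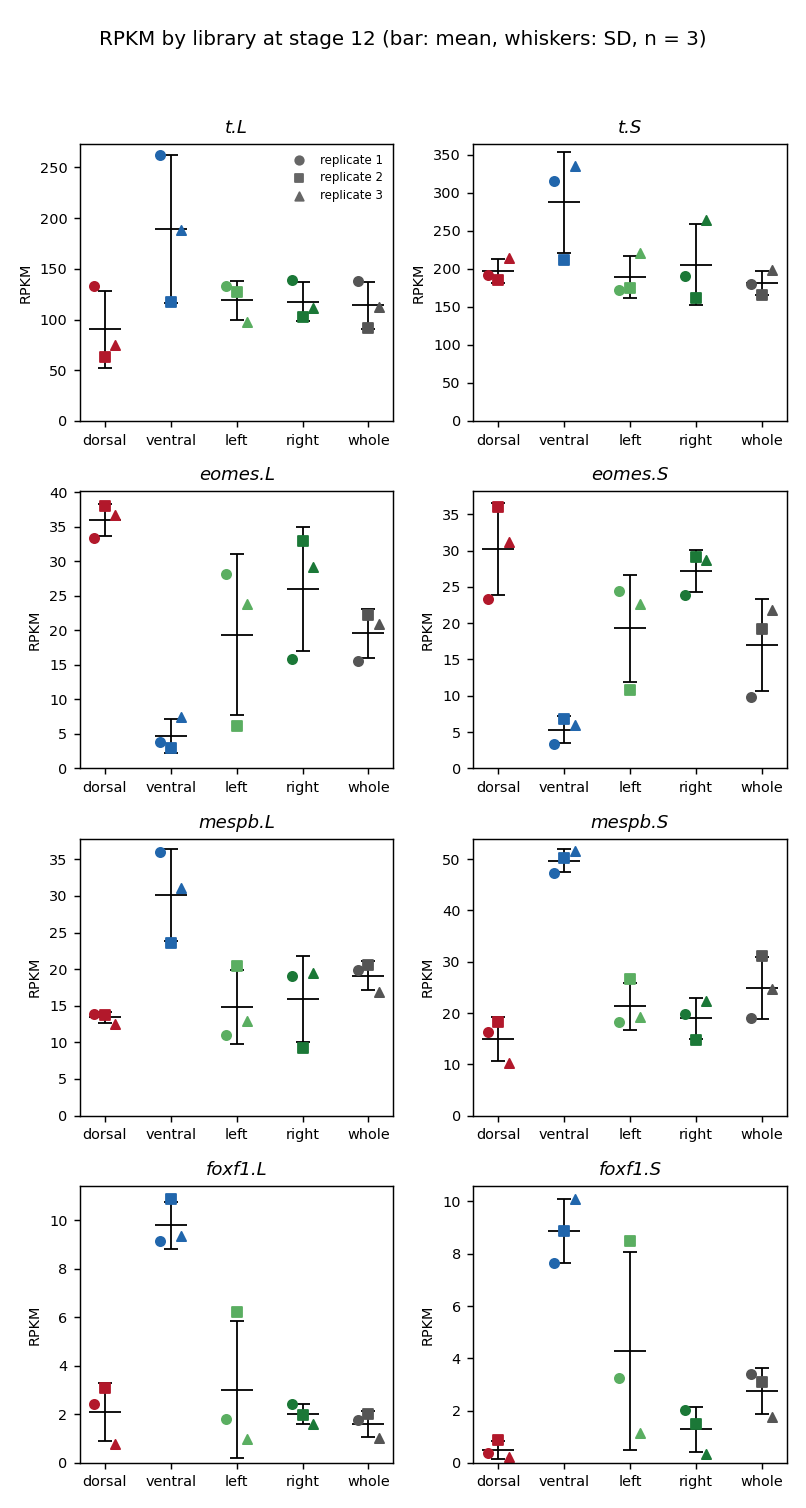
RPKM (linear axes from 0) of the 8 members at stage 12 in each of 15 libraries, drawn in the same way (horizontal bar: mean, whiskers: 1 SD, n = 3). Dorsal libraries of eomes.L lie between 33.4 and 37.9 RPKM and ventral ones between 2.88 and 7.48 RPKM, and left replicate 2 stands away from the other left libraries in eomes and foxf1.

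The order of levels across the 5 groups placed ventral half-embryos first for t and mespb at both stages and for foxf1 at stage 12. For t.S at stage 10.5 the means ran from ventral (206 ± 21.2 RPKM, SD, n = 3) through dorsal (176 ± 18.9), right (173 ± 18) and left (165 ± 9.55) to whole embryos (136 ± 14.3). Neighbours in that order overlapped apart from left half-embryos and whole embryos. For t.L at stage 10.5 ventral half-embryos (116 ± 14.9 RPKM) did not overlap right half-embryos (83.3 ± 14.7), the next group, and the other groups overlapped their neighbours. At stage 12 all neighbours overlapped for both copies of t. For mespb the ventral group was clear of the next one in both copies and at both stages, and all lower neighbours overlapped. For eomes ventral half-embryos came last in both copies and at both stages. At stage 12 eomes.L had dorsal half-embryos (36.0 ± 2.35 RPKM) at the top, clear of right half-embryos (26 ± 8.98), and eomes.S had whole embryos (17.0 ± 6.29) clear of ventral half-embryos (5.34 ± 1.84), the lowest group. For foxf1.L ventral half-embryos (9.79 ± 0.959 RPKM) were clear of left half-embryos (3.01 ± 2.83). For foxf1.S they overlapped through left replicate 2.

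The comparison of ventral half-embryos with whole embryos used the same ventral libraries, so it is not independent of the one above. At stage 10.5 t.S was the 1 member called of 6, where 2.06% of all genes were called, and it was higher in ventral half-embryos by 1.5-fold. It stood at 182, 213 and 222 RPKM in ventral half-embryos and at 128, 153 and 129 RPKM in whole embryos, a difference of 0.59 ± 0.12 (adjusted p = 0.0259). The call was lost without ventral replicate 2 or 3 or whole replicate 1 or 3, at adjusted p of 0.0826 to 0.126. The L copy of t stood at 72.1, 93.7 and 58.6 RPKM in whole embryos, below all 3 ventral values, and mespb.L at 15.6, 20.7 and 12.0 RPKM, also below all 3 ventral values. Their differences, 0.65 ± 0.23 (adjusted p = 0.166) and 0.83 ± 0.23 (adjusted p = 0.0787), were called with the replicate block, at 0.0252 and 0.0237. The block called 3 members in all, and 17.4% of all genes. Without the block, mespb.L was also called without left replicate 1 (adjusted p = 0.0449). The levels of mespb.S in whole embryos, 23.2, 27.6 and 38.6 RPKM, also lay below the ventral range (0.67 ± 0.23, adjusted p = 0.155, and 0.0535 with the block). For eomes the whole embryos, at 22.3, 36.1 and 37.9 RPKM in the L copy and 48.3, 50.05 and 69.1 RPKM in the S copy, overlapped the ventral range. The differences were -0.30 ± 0.31 (adjusted p = 0.670, and 0.480 with the block) for L and -0.72 ± 0.29 (adjusted p = 0.214, and 0.0534 with the block) for S.

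At stage 12 ventral half-embryos differed from whole embryos in 4 of 8 members, where 3.95% of all genes were called. Both copies of eomes were lower and mespb.S and foxf1.L were higher in ventral half-embryos than in whole embryos. The whole-embryo levels of eomes.L were 15.6, 22.2 and 20.9 RPKM, each above every ventral value, and the difference was -1.91 ± 0.45 (adjusted p = 0.0330). Those of eomes.S were 9.88, 19.3 and 21.8 RPKM, with a difference of -1.48 ± 0.33 (adjusted p = 0.0264). The whole-embryo levels of mespb.S were 18.98, 31.2 and 24.6 RPKM, a difference of 0.99 ± 0.24 (adjusted p = 0.0336). Those of foxf1.L were 1.76, 2.03 and 1.03 RPKM, the lowest mean of the 5 groups, a difference of 2.07 ± 0.41 (adjusted p = 0.0128). In all 4 the ventral and whole libraries did not overlap. These members were picked out by their calls, and the share of all genes without overlap was not counted.

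Those 4 calls were near the threshold in the fit without the block. Leaving out whole replicate 3 ended all 4, and leaving out ventral replicate 1 ended those of eomes.L, eomes.S and mespb.S. Over all single omissions the highest adjusted p was 0.120 for eomes.L, 0.123 for eomes.S, 0.138 for mespb.S and 0.0615 for foxf1.L. With the replicate block and all libraries kept, the adjusted p was 0.0168, 0.0110, 0.0176 and 0.00212 in the same order. The S copy of foxf1 stood at 3.39, 3.09 and 1.74 RPKM in whole embryos, below all 3 ventral values, with a difference of 1.42 ± 0.45 (adjusted p = 0.0984). It was called with the replicate block (adjusted p = 0.0248) and without left replicate 2, the library that stood apart (adjusted p = 0.0375). For t the whole-embryo levels were 138, 91.8 and 113 RPKM in the L copy and 180.1, 166 and 198 RPKM in the S copy. Their differences of 0.67 ± 0.30 (adjusted p = 0.255) and 0.64 ± 0.19 (adjusted p = 0.0863) were called with the block, at 0.0375 and 0.00625. The S copy of t was also called without ventral replicate 2, at 0.84 (adjusted p = 0.0270). That library is the lowest ventral one, so leaving it out widens the difference by construction. It was the 1 omission of 15 that gave a call of t.S, and the adjusted p reached 0.260. The whole-embryo levels of mespb.L, 19.9, 20.6 and 16.8 RPKM, lay below the ventral range without a call (0.62 ± 0.27, adjusted p = 0.247, and 0.169 with the block). The block called 7 of 8 members and 11.1% of all genes.

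The comparison of dorsal half-embryos with whole embryos called no member with limma, 0 of 6 at stage 10.5, where 4.23% of all genes were called, and 0 of 8 at stage 12, where 0.814% were. At an unadjusted p under 0.05 there were 2 members at stage 10.5, t.S and mespb.S, and 3 at stage 12, eomes.S, mespb.S and foxf1.S. The same cut-off took in 3710 of all 16672 genes tested at stage 10.5 and 2363 of 15594 at stage 12. For t.S at stage 10.5 the dorsal libraries, at 155 to 189.8 RPKM, lay above the whole ones, at 128 to 153 RPKM, by 0.37 ± 0.12 (adjusted p = 0.0885, and 0.0354 with the replicate block, which called 25.3% of all genes). For mespb.S the differences were -0.61 ± 0.23 (adjusted p = 0.146) at stage 10.5 and -0.71 ± 0.24 (adjusted p = 0.161) at stage 12. At stage 12 all 3 dorsal values of eomes.S lay above all 3 whole ones, with a difference of 0.84 ± 0.33 (adjusted p = 0.243). For foxf1.S all 3 dorsal values lay below all 3 whole ones, with a difference of -1.33 ± 0.45 (adjusted p = 0.17, and 0.0441 with the block, which called 6.68% of all genes). For foxf1.L, at a mean of 2.11 ± 1.19 RPKM in dorsal half-embryos and 1.61 ± 0.518 RPKM in whole embryos, the difference was 0.19 ± 0.41 (adjusted p = 0.888), and the copies were not tested against each other.

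**Figure D3:**
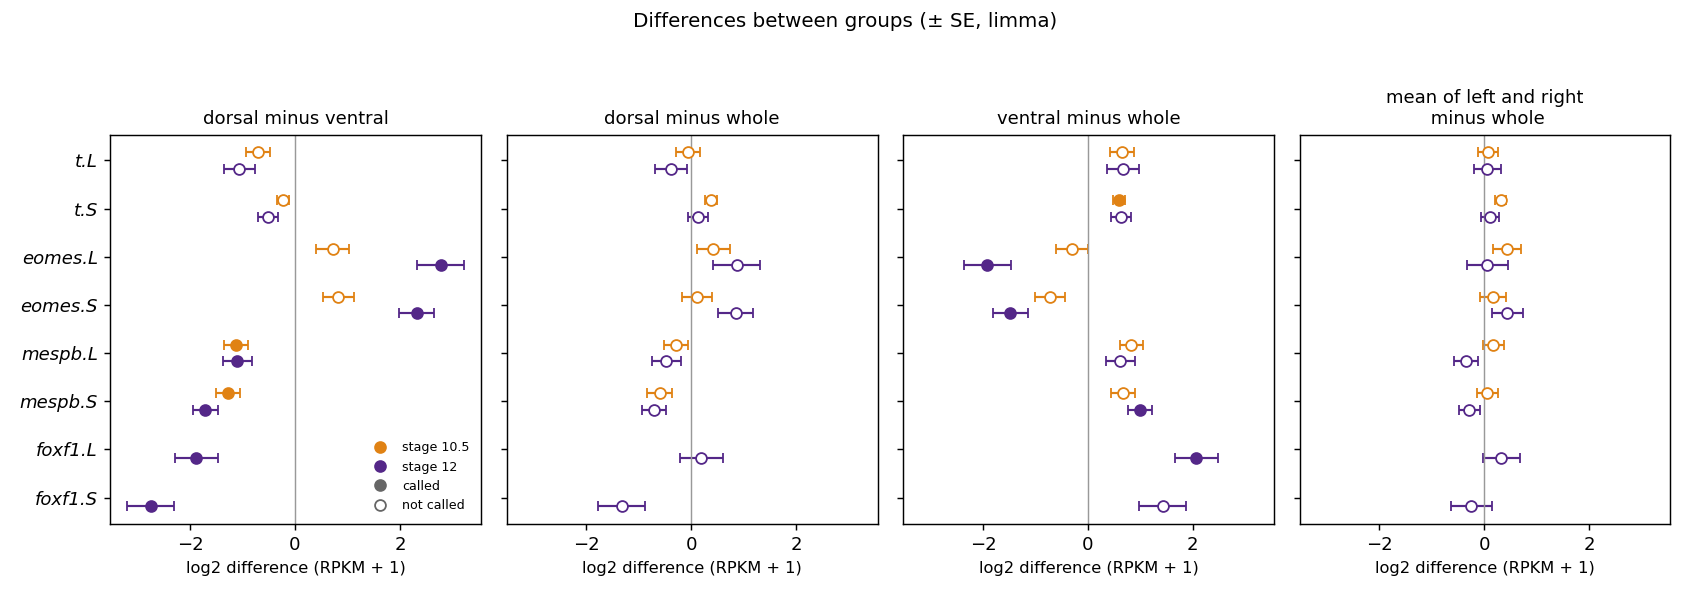
Differences in mean log2(RPKM + 1) (x axis) with bars of 1 standard error from limma for each member (rows) in 4 comparisons, at stage 10.5 (orange) and stage 12 (purple), with filled points called at an adjusted p of 0.05 or less. Dorsal minus ventral holds the widest span, with foxf1.S at -2.75 and eomes.L at 2.78 at stage 12, and the mean of left and right minus whole has no called point.

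The comparison of left with right half-embryos, which a cut along the midline separates, called no gene of either table with limma, 0% of all genes and 0 members at each stage, with or without the replicate block. At an unadjusted p under 0.05 there were 107 genes at stage 10.5, none of them a member, and 219 at stage 12, foxf1.S among them. At stage 10.5 t.L stood at 57.5, 86.1 and 75.8 RPKM in left and at 67.3, 96.3 and 86.3 RPKM in right half-embryos, so the left library was the lower in 3 of 3 pairs, at 0.855, 0.894 and 0.879 of the right one. The difference was -0.19 ± 0.23 (adjusted p = 1.00). For mespb.L the ratios of left to right were 0.984, 0.594 and 0.689, from 22.4, 13.1 and 12.2 RPKM in left and 22.7, 22.1 and 17.7 RPKM in right half-embryos (-0.41 ± 0.23, adjusted p = 1.00). For eomes.L they were 1.14, 1.31 and 1.09, from 53.0, 54.1 and 33.9 RPKM in left and 46.4, 41.3 and 31.2 RPKM in right half-embryos (0.23 ± 0.31, adjusted p = 1.00). In the pair that holds right replicate 2, with its low organizer sum, eomes.S was at 78.7 RPKM in left and 51.4 RPKM in right, the widest gap of that gene's 3 pairs. Without right replicate 2 the difference of left and right was 0.20 for eomes.S, against 0.27 ± 0.29 with it, -0.08 for t.L and -0.37 for mespb.L. It was 0.27 for eomes.L, and no member changed sign or was called (adjusted p = 1.00). Left replicate 2, the same-numbered partner with the highest organizer sum of the left libraries, was kept, so these differences are not paired.

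At stage 12 pair 2 had the lowest ratio of left to right of the 3 pairs in both copies of eomes and the highest in the other 6 members. The L copy of eomes stood at 28.2, 6.09 and 23.8 RPKM in left and at 15.9, 33.0 and 29.1 RPKM in right half-embryos, and left replicate 2 was thus at 0.185 of its partner. The S copy stood at 24.4, 10.9 and 22.6 RPKM in left and at 23.9, 29.1 and 28.7 RPKM in right half-embryos, where left replicate 2 was at 0.373 of its partner. In the other direction, foxf1.S stood at 3.25, 8.49 and 1.14 RPKM in left and at 2.02, 1.496 and 0.321 RPKM in right half-embryos, with pair 2 at a ratio of 5.67 and pair 3, on 9 and 3 reads, at 3.54. For foxf1.L the levels were 1.80, 6.24 and 1.00 RPKM in left and 2.44, 1.97 and 1.62 RPKM in right half-embryos, with pair 2 at 3.17 and the others below 1. The left-to-right ratio of pair 2 was 2.22 for mespb.L and 1.82 for mespb.S, against 0.574 to 0.915 in the other pairs. It was 1.25 for t.L and 1.08 for t.S, against 0.836 to 0.955.

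Left replicate 2 of stage 12 was low in eomes and high in foxf1 and mespb, with an organizer sum of 202 and a ventral sum of 755 RPKM, and no part of these marker values in the member values was tested. Without it the difference of left and right was 0.057 for eomes.L, against -0.58 ± 0.45 with it, and -0.34 for foxf1.L, against 0.20 ± 0.41 with it, so both changed sign. It was -0.20 for eomes.S, against -0.55 ± 0.33 with it, and 0.49 for foxf1.S, against 1.04 ± 0.45 with it. The difference of t.L also changed sign, at -0.037 without it and 0.017 ± 0.30 with it. No member was called either way, and the adjusted p was 1.00 throughout. Right replicate 2, the same-numbered partner of left replicate 2, was kept, so these differences are not paired. That partner had the highest organizer sum of the right libraries, 1275 RPKM, against 962 and 1139 RPKM.

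**Figure D4:**
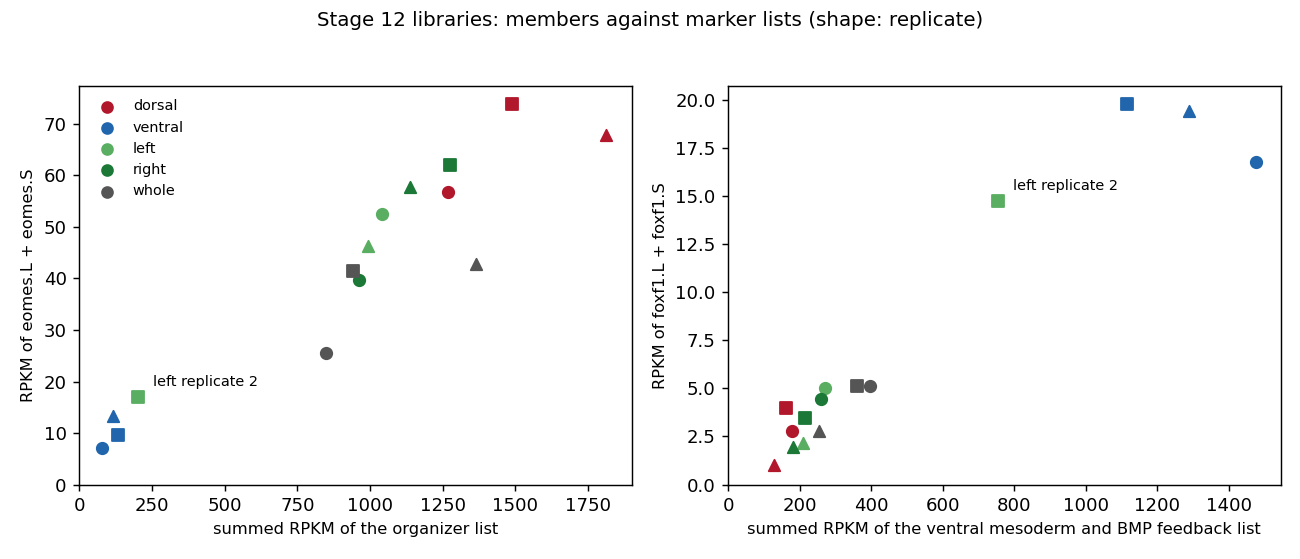
Stage 12 libraries, coloured by group with shapes for replicates 1 to 3: on the left the summed RPKM of the organizer list (x) and of eomes.L and eomes.S (y), on the right the summed RPKM of the ventral mesoderm and BMP feedback list (x) and of foxf1.L and foxf1.S (y). Left replicate 2 lies beside the ventral libraries in the left panel, at an organizer sum of 202, and between them and the rest in the right panel, at a ventral sum of 755.

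Left and right half-embryos together, as the mean of the 2 groups, had no member called against whole embryos with limma. The counts were 0 of 6 at stage 10.5, where 2.71% of all genes were called, and 0 of 8 at stage 12, where 1.38% were. At an unadjusted p under 0.05 there was 1 member at stage 10.5, t.S, and 0 at stage 12. Of all genes tested, 3413 of 16672 at stage 10.5 and 2510 of 15594 at stage 12 were under that p. For t.S the left libraries held 167, 155 and 174 RPKM and the right ones 184, 152 and 183 RPKM, against 128, 153 and 129 RPKM in whole embryos, and the difference was 0.31 ± 0.10 (adjusted p = 0.109, and 0.0435 with the replicate block, which called 22% of all genes). Whole replicate 2 was the one whole library within the range of the half-embryos. The differences of t.S from whole embryos at stage 10.5 were thus 0.59 in ventral, 0.37 in dorsal and 0.31 in midline-cut half-embryos, of which the ventral one was called, and these comparisons share their 3 whole-embryo libraries. The members' differences lay between 0.06 and 0.43 at stage 10.5 and between -0.35 and 0.44 at stage 12.

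Half-embryos from the midline cut, as the mean of left and right, were also set against those from the frontal cut, as the mean of dorsal and ventral. No member was called at either stage with limma, where 0.024% of all genes were called at stage 10.5 and 0.0128% at stage 12. At an unadjusted p under 0.05 there was 1 member at stage 10.5, eomes.S, and there were 4 at stage 12, eomes.S, foxf1.L and both copies of mespb. Among all genes tested, 447 of 16672 at stage 10.5 and 629 of 15594 at stage 12 were under that p. At stage 12 eomes.S averaged 23.3 RPKM over left and right and 17.8 RPKM over dorsal and ventral half-embryos (0.76 ± 0.24, adjusted p = 0.776). The L copy of foxf1 averaged 2.51 RPKM over left and right and 5.95 RPKM over dorsal and ventral half-embryos (-0.81 ± 0.29, adjusted p = 0.968). These differences average logs over dorsal and ventral half-embryos, which lie far apart in both genes, and the mean of such logs is below the log of their mean, so the ratio of the RPKM means is another quantity. Without left replicate 2 these differences were 0.93 (adjusted p = 0.116) and -1.08 (adjusted p = 0.0615).

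The levels of the 2 stages come from separately made tables and were not tested against each other. In whole embryos t.S averaged 136 ± 14.3 RPKM at stage 10.5 and 182 ± 16.1 RPKM at stage 12, and t.L 74.8 ± 17.7 and 114 ± 23.2 RPKM in the same order of stages. The S copy of eomes averaged 55.8 ± 11.6 RPKM in whole embryos at stage 10.5 and 17.0 ± 6.29 RPKM at stage 12. In ventral half-embryos it averaged 35.1 ± 15.3 RPKM at stage 10.5 and 5.34 ± 1.84 RPKM at stage 12, and in dorsal half-embryos 60.0 ± 10.9 and 30.2 ± 6.36 RPKM. In ventral half-embryos mespb.S averaged 47.2 ± 4.95 RPKM at stage 10.5 and 49.7 ± 2.23 RPKM at stage 12. A change of these differences from stage to stage was tested by fitting all 30 libraries together, over the 14948 genes that both tables list. The dorsal minus ventral difference was larger at stage 12 by 2.06 ± 0.58 for eomes.L (unadjusted p = 0.00160, adjusted p = 0.557) and by 1.49 ± 0.46 for eomes.S (adjusted p = 0.783). Neither was called, nor was any other member, and 0% of all genes were called for this change. Of the 6 members tested, these 2 were the ones at an unadjusted p under 0.05. The number of all genes under that p was not counted, so this count cannot be weighed and no change of eomes between stages is drawn from it. With the replicate block the adjusted p was 0.310 for eomes.L and 0.320 for eomes.S, and 0.0268% of all genes were called. The ventral minus whole difference of eomes.L differed at stage 12 from that at stage 10.5 by -1.61 ± 0.58 (adjusted p = 0.528), where 0.0602% of all genes were called.

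The balance between the homeologs differed between the genes. The S copy was the higher one of t in every library, and t.L made up 24.5% to 38.8% of the summed RPKM at stage 10.5 and 25.3% to 45.4% at stage 12. At stage 10.5 its share was 28.7 ± 3.6% in dorsal and 36.1 ± 1.4% in ventral half-embryos (SD, n = 3), groups that did not overlap, and at stage 12 it was 30.7 ± 8.9% in dorsal and 39.0 ± 5.6% in ventral half-embryos, with overlap. For eomes the L share averaged 40.4% over the 15 libraries at stage 10.5 and 50.1% at stage 12, and for mespb 37.6% and 42.9%. Without the library that stood apart at each stage the means were 40.1% and 51.1% for eomes and 37.7% and 42.9% for mespb. For foxf1 the L share was 81.1 ± 5.0% in dorsal and 52.5 ± 3.9% in ventral half-embryos and 37.0 ± 2.8% in whole embryos, without overlap. Right half-embryos, at 65.0 ± 16.0%, overlapped the dorsal and the ventral ones, and left half-embryos, at 41.6 ± 5.6%, overlapped whole embryos. The dorsal share rests on the few foxf1.S reads given above, and the whole-embryo share on 37 reads of foxf1.L and 41 of foxf1.S in all. Differences between shares were not tested.

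Genes whose levels followed each member most closely were ranked by Pearson correlation of log2(RPKM + 1) over the 15 libraries of a stage, among genes with a symbol and a mean RPKM of 5 or more. These are descriptions: the 15 points share their groups, replicate numbers and depth. Some of the genes named ranked far lower by Spearman correlation. At stage 12 eomes.S ran closest to foxd3.S (r = 0.977), a forkhead gene of neural crest and dorsal mesoderm, lhx1.L (0.973), a LIM homeobox gene of the organizer, and dennd2c.L (0.968). The L copy ran closest to not.L (0.964), a notochord homeobox gene, dusp1.L (0.962) and fzd8.L (0.96), a Wnt receptor. By Spearman correlation with eomes.L, not.L ranked 2, dusp1.L 35 and fzd8.L 47. The 2 eomes copies correlated at 0.918 (Pearson). The closest to foxf1.L were evx1.L (0.964), a posterior homeobox gene, tbx2.S (0.952) and cdx2.L (0.944), and to foxf1.S szl.L (0.961), which encodes the ventral inhibitor Sizzled, and both copies of the BMP pseudoreceptor gene bambi (0.957 for L and 0.953 for S). The 2 foxf1 copies correlated at 0.818. The closest to mespb.S were post.1 (0.936), msx1.L (0.925), a BMP target gene, and fzd10.S (0.919), a Wnt receptor gene. For mespb.L they were ptgs2.S (0.887), a prostaglandin synthase gene, msx1.S (0.872) and again fzd10.S (0.852).

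At stage 12 the genes closest to t.L included cldn4.L (0.885) and krt.S (0.850), genes of epithelial junctions and epidermis. The S copy of t ran closest to hagh.L (0.847, with a Spearman rho of 0.500), ap1m2.L (0.830) and mpc1.S (0.802), while the 2 copies correlated at 0.560. By Spearman correlation cldn4.L ranked 22 and krt.S 8 for t.L, and hagh.L ranked 416, ap1m2.L 5 and mpc1.S 36 for t.S. In the same libraries the summed RPKM of 12 epidermis rows was 638 to 1094 in dorsal and 2440.2 to 3761 in ventral half-embryos, and its part in the levels of t was not tested. At stage 10.5 the closest gene was srrm1.S (0.854) for t.S, hhex.L (0.851), a homeobox gene of the anterior endoderm, for eomes.S, arsa.S (0.821) for eomes.L, rasl11b.S (0.891) for mespb.S and msx1.S (0.785) for mespb.L. For t.L it was the model Xetrov90027205m.S (0.862), which carries the human symbol SDHB, and tbx2.L (0.821) was the third. Without right replicate 2 at stage 10.5 and left replicate 2 at stage 12, an alternative chosen after seeing the data, correlations of the 3 closest genes and the own homeolog moved by at most 0.0546 and 0.0425.

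Related mesoderm genes were described from 6 lists, the members left out, which were chosen with earlier results of these data known. The lateral plate and ventral mesoderm list holds szl, msx1 and bambi, which also stand in the ventral marker list used to check the sides. Its counts are therefore a description and no independent support. Of all genes, 0.6% were higher and 0.39% lower in dorsal than in ventral half-embryos at stage 10.5, and 2.01% were higher and 1.75% lower at stage 12. Of the lateral plate and ventral mesoderm list, 0 of 23 rows were higher and 13 lower in dorsal than in ventral half-embryos at stage 10.5, with a median difference of -1.19, against -0.03 over all genes tested. At stage 12 2 of 22 rows were higher and 16 lower, with a median of -1.90, against 0.02. Among them msx1.L averaged 36.7 ± 9.1 RPKM in dorsal and 203 ± 1.46 RPKM in ventral half-embryos at stage 12 (-2.47 ± 0.28, adjusted p = 0.000667). The GATA2 model Xelaev18023995m, for a zinc finger factor of blood precursors, averaged 23.0 ± 2.22 RPKM in dorsal and 106 ± 13.8 RPKM in ventral half-embryos (-2.15 ± 0.27, adjusted p = 0.000896).

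The paraxial mesoderm and segmentation list, to which mespb belongs, had no such one-sided count. At stage 10.5 4 of 25 rows were higher and 1 was lower in dorsal half-embryos, with a median of 0.09, and at stage 12 9 of 29 were higher and 3 lower, with a median of 0.04. Myf5 and MyoD drive muscle differentiation: at stage 10.5 myf5.L averaged 14.3 ± 5.23 RPKM in dorsal and 1.37 ± 1.85 RPKM in ventral half-embryos (2.92 ± 0.47, adjusted p = 0.00685). At stage 12 myod1.L averaged 13.4 ± 2.76 RPKM in dorsal and 2.89 ± 1.34 RPKM in ventral half-embryos (1.92 ± 0.25, adjusted p = 0.000931), and the forkhead gene foxc2.L 27.2 ± 3.01 and 4.01 ± 2.22 RPKM (2.60 ± 0.32, adjusted p = 0.000896). The Notch ligand gene dll1.S was lower in dorsal half-embryos at stage 10.5, as mespb was, at 26.9 ± 3.13 RPKM in dorsal and 47.8 ± 5.39 RPKM in ventral half-embryos (-0.81 ± 0.14, adjusted p = 0.00970). Against whole embryos at stage 12, ventral half-embryos had 3 of 29 rows higher and 11 lower, beside 1.44% and 2.51% of all genes, and foxc2.L stood at 4.01 ± 2.22 RPKM in ventral half-embryos and 29.98 ± 7.59 RPKM in whole embryos (-2.71 ± 0.32, adjusted p = 0.000907).

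Of the other T-box genes on the list, which does not hold the further T row t2.S, 0 of 10 rows were higher and 3 lower in dorsal than in ventral half-embryos at stage 10.5, and at stage 12 2 of 12 were higher and 5 lower, with medians of -0.71 and -0.56. At stage 12 tbx1.S, of the pharyngeal mesoderm, averaged 5.78 ± 0.130 RPKM in dorsal and 0.787 ± 0.270 RPKM in ventral half-embryos (1.93 ± 0.23, adjusted p = 0.000896). The TBX3 model Xelaev18007438m averaged 0.903 ± 0.718 RPKM in dorsal and 19 ± 5.34 RPKM in ventral half-embryos (-3.43 ± 0.52, adjusted p = 0.00212). The row t2.S, picked out after its values were seen, was also higher in dorsal half-embryos at stage 12 (0.81 ± 0.19, adjusted p = 0.0304). With tbx1 and eomes higher and the TBX3 models lower in dorsal half-embryos, calls in the T-box family ran in both directions.

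Of the ligands that induce mesoderm, 3 of 19 rows were higher and 2 lower in dorsal half-embryos at stage 10.5, and 4 were higher and 1 lower at stage 12. The ventral ligand gene wnt8a.L averaged 45.1 ± 4.85 RPKM in dorsal and 98.3 ± 3.73 RPKM in ventral half-embryos at stage 10.5 (-1.11 ± 0.18, adjusted p = 0.00734). At stage 12 fgf8.L averaged 19.3 ± 1.09 RPKM in dorsal and 8.64 ± 1.77 RPKM in ventral half-embryos (1.09 ± 0.19, adjusted p = 0.00530), and nodal.L 11.9 ± 3.45 and 0.227 ± 0.228 RPKM (3.38 ± 0.68, adjusted p = 0.0107). Of the receptors, Smads and cofactors of the Nodal pathway no row was called between dorsal and ventral half-embryos with limma, 0 of 22 at stage 10.5 and 0 of 21 at stage 12, with medians of -0.02 and 0.00. The replicate block called 1 lower at stage 10.5, where it called 2.17% of all genes, and 1 in each direction at stage 12. Of FGF signal transduction and feedback genes, 2 of 33 were higher and 0 lower at stage 10.5, and 4 of 36 were higher and 4 lower at stage 12. The FGF feedback inhibitor gene spry2.S averaged 23.6 ± 1.16 RPKM in dorsal and 8.92 ± 2.76 RPKM in ventral half-embryos at stage 12 (1.34 ± 0.21, adjusted p = 0.00258), whereas the posterior homeobox gene cdx4.L averaged 75.4 ± 22.8 and 181 ± 18.5 RPKM (-1.29 ± 0.22, adjusted p = 0.00460).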

How the data were processed

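Libraries came from poly(A) RNA by a kit that keeps no strand, and were read single-ended, per the labels' protocols. TopHat2 2.09 and DESeq (without a version) are named in the submitters' processing notes, and the tool for counting reads was not given in the sources used here. For each stage the authors deposited a table of RPKM over gene models of the JGI9.1 annotation, limited to genes with an average above 1, per the file headers (20 genes at stage 12 average slightly less). Whole reads behind the values were recovered from common steps within each row (100% of rows, relative deviation at most 1.02e-08), to state depth alone.

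Groups and replicate numbers came from the sample titles. Genes reaching an RPKM of 1 in 3 or more libraries (16672 at stage 10.5 and 15594 at stage 12) were tested on log2(RPKM + 1) by limma 3.58.1 (R 4.3.3) with a mean-variance trend. All 15 libraries of a stage entered 1 fit without a block, tests were two-sided, and p-values were adjusted by Benjamini-Hochberg over all genes tested, with calls at 0.05 or less. The script was tested on simulated data. The median difference of all genes was at most 0.09 in size.

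Replicate numbers pair the samples. The label of each whole-embryo library names the half-embryos of its number, and deviations from group means correlated at 0.414 or more (30 pairs, stage 10.5) and 0.274 or more (30 pairs, stage 12) between same-numbered libraries. Values with the number as a block stand beside a result where a call changed, and beside some where none did.

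The members and gene lists were chosen with earlier results of these data known. All rows of the 4 symbols are described. In each list, genes named were among the up to 3 called with the smallest p per comparison, and the most alike were taken from the 3 with the highest correlation, of which 1 is not reported here. All 8 member IDs matched RefSeq names, 6 by symbol and t.L and t.S by the synonym of tbxt. Alternatives were another pseudocount (0.1), no filter or a mean RPKM of 5 or more, upper-quartile and quantile scaling, limma without trend, the groups compared alone, and each library left out. Sequences and coordinates were not used here.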

Additional observations from a re-analysis of the deposited data

How the results depend on the processing

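Of 391 recomputations of member differences under other settings, 376 kept their direction and their side of the threshold, and of 735 with 1 library left out 680 did. Of the 391, 3 lost a call, 11 gained one and 1 changed sign, and of the 735 these numbers were 42, 6 and 7. Differences that were not called and stayed so are counted as kept, so these counts do not give the share of calls that held. These counts hold all members in the dorsal and ventral comparisons. They hold selected members only for left minus right, the midline-cut comparisons and the changes between stages. The cause of the changes was not tested, beyond what a setting itself removes. Depth limits foxf1 most, with as few as 2 reads behind a value, and a mean RPKM of 5 or more removes both its copies, so that filter gave no value for them.

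With the replicate block, calls were added in dorsal minus ventral at stage 12 for t.S (-0.52) and t.L (-1.06), in ventral minus whole at stage 10.5 for t.L (0.65) and mespb.L (0.83), and in ventral minus whole at stage 12 for t.S (0.64), t.L (0.67) and foxf1.S (1.42). The members called with the block were 1 in dorsal minus whole at each stage, 3 in ventral minus whole at stage 10.5 and 7 at stage 12, and 1 in the mean of left and right minus whole at stage 10.5. Of all genes, the block called 25.3% and 6.68% in dorsal minus whole at stages 10.5 and 12. In the same order of stages it called 17.4% and 11.1% in ventral minus whole, and at stage 10.5 22% in the mean of left and right minus whole. The block changed no other member's call. Fitted on the groups compared alone, ventral minus whole lost t.S at stage 10.5 (0.59, leaving 0 members called) and eomes.S at stage 12 (-1.48) and gained foxf1.S (1.42). Quantile normalization also took t.S of stage 10.5 out of the calls (0.49, leaving 0), and upper-quartile scaling turned t.L in dorsal minus whole at stage 10.5 to 0.021, against -0.063.

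With 1 library left out, member counts at stage 10.5 ranged from 0 to 2 in dorsal minus ventral and 0 to 2 in ventral minus whole, and in ventral minus whole at stage 12 from 0 to 5. Over the same omissions, all genes called in dorsal minus ventral at stage 10.5 ranged from 78 to 162, against 165 with all libraries. In ventral minus whole they ranged from 47 to 332, against 343, at stage 10.5 and from 213 to 722, against 616, at stage 12. Dorsal minus ventral ranged at stage 10.5 from -1.46 to -1.15 for mespb.S and -1.23 to -1.02 for mespb.L, and at stage 12 from -0.72 to -0.39 for t.S, -1.38 to -0.79 for t.L, -1.26 to -0.96 for mespb.L and -2.12 to -1.52 for foxf1.L. Ventral minus whole ranged at stage 10.5 from 0.53 to 0.68 for t.S, -0.63 to 0.075 for eomes.L and 0.65 to 1.02 for mespb.L. At stage 12 it ranged from 0.51 to 0.84 for t.S, 0.82 to 1.16 for mespb.S, -2.24 to -1.68 for eomes.L, -1.81 to -1.22 for eomes.S, 1.90 to 2.19 for foxf1.L and 1.21 to 1.55 for foxf1.S. Dorsal minus whole changed sign at stage 10.5 for t.L (-0.22 to 0.18) and eomes.S (-0.035 to 0.27) and at stage 12 for foxf1.L (-0.053 to 0.55). Left minus right at stage 12 changed sign for eomes.L (-0.96 to 0.057) and foxf1.L (-0.34 to 0.59). Outside the differences counted above, it also did so for t.L without left replicate 2 (-0.037, against 0.017).

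Counts over all genes moved more. With the block, all genes called at stage 10.5 numbered 362 in dorsal minus ventral, against 165, 4219 in dorsal minus whole, against 705, 2895 in ventral minus whole, against 343, and 3666 in the mean of left and right minus whole, against 452. At stage 12 they numbered 898, against 587, 1041, against 127, 1734, against 616, and 1323, against 215, in the same order. With the groups compared alone, all genes called numbered 102, 0, 52 and 16 at stage 10.5, and at stage 12 24 in dorsal minus whole, 345 in ventral minus whole and 22 in the mean of left and right minus whole.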

Other observations

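Other rows that carry related symbols were picked out after their values were seen. The gene t2.S carries the human symbol T and matches tbxt.2.S in RefSeq (assembly Xenopus_laevis_v10.1), where it neighbours tbxt.L, the match of t.L. At stage 12 it stood at 68.1, 68.7 and 69.5 RPKM in dorsal and at 42.8, 35.1 and 39.2 RPKM in ventral half-embryos, without overlap, a difference of 0.81 ± 0.19 (limma adjusted p = 0.0304). That direction is opposite to the differences of t.L (-1.06 ± 0.30) and t.S (-0.52 ± 0.19), which were called with the replicate block. At stage 10.5 t2.S stood at 38.9, 41.3 and 61.9 RPKM in dorsal and at 10.7, 26.1 and 21.4 RPKM in ventral half-embryos, again higher in 3 of 3 pairs (1.3 ± 0.43, adjusted p = 0.402, and 0.00678 with the block). The difference between these copies was not tested.

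Of the Mesp family, the MESP2 model LOC101732842.S was listed at stage 12, at 0, 0.398 and 0.745 RPKM in dorsal and 3.21, 2.02 and 4.55 RPKM in ventral half-embryos (-1.62 ± 0.42, adjusted p = 0.0493). In whole embryos it was at 0, 0.207 and 0.593 RPKM, and ventral half-embryos were higher by 1.73 ± 0.42 (adjusted p = 0.0375). Listing needed an average RPKM above 1, and this row averaged 3.26 RPKM in ventral half-embryos. Its averages were 0.381 RPKM in dorsal, 1.12 in left and 0.916 in right half-embryos and 0.266 in whole embryos. It was thus listed through its ventral values, so these calls give no independent support for a ventral excess. The copies of mespa, next of kin of mespb, averaged 5.34 RPKM or less in every group and were called in no comparison.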
